A study of Mus musculus with 8 samples.

Results

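The Sprouty, Spred and Dusp genes treated here encode proteins that restrain the ERK pathway, the kinase cascade in which *Map2k1* acts. The 10 genes are *Spry1*, *Spry2*, *Spry4*, *Spred1*, *Spred2*, *Spred3*, *Dusp4*, *Dusp5*, *Dusp6* and *Dusp7*, found by symbol among the 49315 genes counted in each of 8 libraries of mouse brain endothelial cells (ECs). Of these libraries, 4 came from mutant pups, R26GT-Map2k1-GFP/+; Tg-Cdh5CreER+/-, and 4 from control pups labelled wild type, and each pup gave 1 library. Pups received tamoxifen on day 1 of life, and ECs were taken at day 9 with beads that bind CD31. In mutant pups the endothelial *Cdh5* driver switches on a *Map2k1* cDNA encoding the active p.K57N protein from the *Rosa* locus, under a strong CAG promoter. Both parent lines were kept on C57BL/6J. Recombination reached only a part of the ECs, so a mutant library averages recombined and other ECs. Below, mutant ECs means all ECs taken from mutant pups, and in which of them a transcript changed was not tested. The controls expressed no added wild-type *Map2k1*, and one part of the study's material describes a control pup with the Tg:Cdh5-CreER driver. Effects of the p.K57N change, of the raised amount of MAP2K1 and of the driver therefore cannot be told apart here.

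Growth factor receptors switch on RAS, which starts a relay of RAF, MEK (the *Map2k1* product) and ERK. ERK in turn raises the transcripts of several of its own inhibitors. Sprouty proteins act near the receptor and at RAF, Spred proteins bring neurofibromin, which switches RAS off, to the membrane, and the Dusp enzymes remove phosphate from ERK itself. DUSP4 and DUSP5 are nuclear phosphatases, and DUSP6 and DUSP7 are cytoplasmic. In vessels, Sprouty and Spred proteins are known as brakes on angiogenic growth factor signals.

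All 10 genes passed the filter on low counts, with 434 to 18385 counts in single libraries. Between the groups, 9 of the 10 passed edgeR's quasi-likelihood test (adjusted p below 0.05), as did 44.4% of the 16887 genes tested. Of the 10, 6 were higher in mutant ECs, where 21.5% of all genes tested were, and 3 were lower, where 22.9% were. Restricted to the 7516 genes averaging 500 normalized counts or more, which takes in all 10, the shares were 32.6% higher and 23.0% lower. The higher genes were *Spred3*, *Dusp4*, *Spred1*, *Spry2*, *Spry4* and *Dusp5*, and the lower genes were *Spry1*, *Dusp7* and *Dusp6*. The median log2 fold change was 0.69 over the 10 genes and -0.02 over all genes tested, and the median absolute log2 fold change was 0.83 and 0.37. Only *Spred3* and *Dusp4* also had an absolute log2 fold change over 1, the study's further limit, which 14.0% of all genes tested passed with the same adjusted p (5.90% higher and 8.05% lower). The groups did not overlap for 9 of the 10 genes, all but *Dusp5*, with 5 higher and 4 lower, and for 42.5% of all genes tested (20.6% higher and 21.9% lower).

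**Figure D1:**
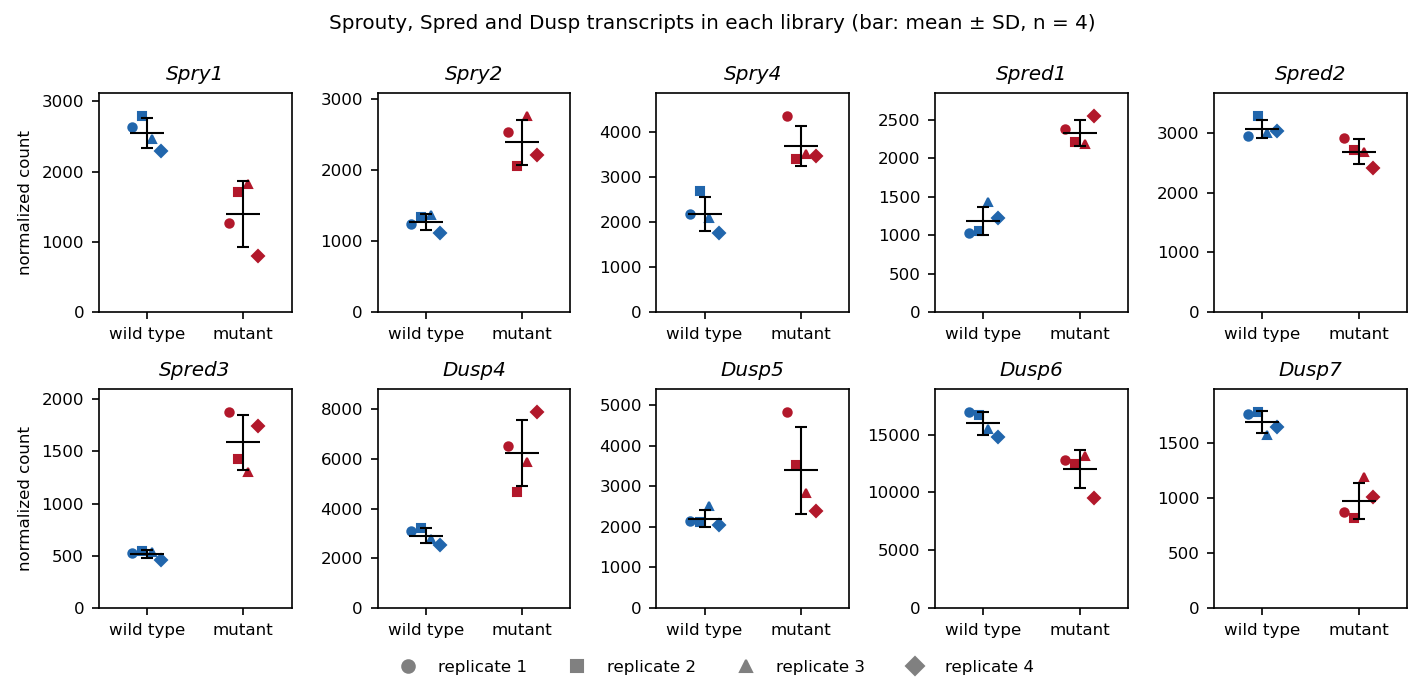
Normalized count (counts scaled by TMM to the mean library size, linear axis from 0) of each gene in the 4 wild-type (blue) and 4 mutant (red) libraries, with the mean and SD in black. The groups are apart in 9 panels, while in the *Dusp5* panel mutant replicate 4, at 2389, sits below wild-type replicate 3, at 2512.

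Before the single genes, the carried gene and the libraries were checked. *Map2k1* (ENSMUSG00000004936), whose count includes reads of the added cDNA, had 18734, 12692, 12707 and 14342 normalized counts in mutant libraries 1 to 4, and 1640, 1762, 1535 and 1506 in wild-type libraries 1 to 4. Every mutant library was far above every wild-type library, as the labels say (log2 fold change 3.18, standard error, SE, 0.13, adjusted p = 2.84e-07, edgeR). Library totals were 24833373 to 34196955 counts in mutant and 28146348 to 32208421 in wild-type ECs. Endothelial markers were abundant in every library, and of the 10 listed, 3 were higher (*Pecam1*, *Cdh5* and *Emcn*) and 3 lower (*Cldn5*, *Tek* and *Kdr*) in mutant ECs.

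Several lists of other transcripts moved with the groups. Of 12 transcripts known to be induced by cell dissociation, 10 were lower in mutant ECs, and their summed normalized counts were 158723 to 271632 in mutant and 359669 to 463472 in wild-type libraries. All 7 red blood cell markers were lower (summed 2657 to 8542 against 15908 to 27586), as were 7 of 8 oligodendrocyte lineage markers (2142 to 3549 against 3928 to 9883) and 5 of 8 neuronal markers (742 to 1066 against 1260 to 3163: *Tubb3*, *Snap25*, *Stmn2*, *Neurod1* and *Map2*). Of the 8 oligodendrocyte lineage markers, *Cspg4*, which pericytes also express, did not pass, with a log2 fold change of 0.04. *Pdgfra*, counted among the 7 lower, is also in the list of fibroblast markers below. Of 8 astrocyte markers *Gja1* was higher and *Aldh1l1* and *S100b* were lower, with summed counts of 18565 to 22252 in mutant and 11079 to 13162 in wild-type libraries. A sum weighs the abundant genes most, and the median log2 fold change of these 8 markers was -0.59. Of 8 pericyte markers *Kcnj8* and *Abcc9* were higher, of 6 smooth muscle markers *Tagln* was higher, and of 6 fibroblast markers *Lum* and *Col1a1* were higher and *Pdgfra* and *Col3a1* lower. The summed counts of these 3 types overlapped between the groups. Among 9 microglia and macrophage markers, 0 passed in edgeR, DESeq2 or limma-voom and 0 had an unadjusted p under 0.05, with summed counts of 3425 to 13535 in mutant and 3692 to 14957 in wild-type libraries. None of the listed markers was at 0 in all libraries. The part of these lists in the results on the 10 genes was not tested, and in bulk RNA fewer cells of a type and less RNA per cell cannot be told apart.

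Promoters are shown for *Spred3*, the gene with the largest rise, *Dusp5*, whose mutant libraries differed most from each other among the genes that rose, and *Dusp6*, the most abundant of the 10. The sequences are from RefSeq on GRCm38.p6, the 250 bases before the annotated start, written along the gene's strand. RefSeq windows were at hand for 8 of the 10 genes. Capitals mark the letters of the Capicua motif, TGAATGAA or TGAATGGA on either strand, in *Spred3*, and the CArG box, the site of serum response factor, in *Dusp5*. Capicua is a repressor that ERK signalling releases from DNA. Whether any motif here bears on the change of its gene was not tested.
Spred3, minus strand, chr7:29168648-29168897: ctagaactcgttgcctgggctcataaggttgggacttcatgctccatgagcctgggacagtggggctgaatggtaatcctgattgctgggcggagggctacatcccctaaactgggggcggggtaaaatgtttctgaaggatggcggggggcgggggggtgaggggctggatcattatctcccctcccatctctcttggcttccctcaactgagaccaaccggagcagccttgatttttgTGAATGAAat
Dusp5, plus strand, chr19:53528895-53529144: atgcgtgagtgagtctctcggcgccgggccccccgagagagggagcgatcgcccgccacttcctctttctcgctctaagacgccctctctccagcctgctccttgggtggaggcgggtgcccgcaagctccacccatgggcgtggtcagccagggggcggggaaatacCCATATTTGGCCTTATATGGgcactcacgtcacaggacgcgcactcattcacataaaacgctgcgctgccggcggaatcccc
Dusp6, plus strand, chr10:99262981-99263230: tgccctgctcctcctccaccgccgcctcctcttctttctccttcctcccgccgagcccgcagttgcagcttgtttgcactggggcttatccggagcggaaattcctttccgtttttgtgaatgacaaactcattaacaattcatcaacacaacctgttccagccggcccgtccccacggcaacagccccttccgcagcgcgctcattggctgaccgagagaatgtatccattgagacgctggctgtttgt
The Capicua motif was in 1 of the 8 windows, that of *Spred3*, 10 to 3 bases before the start, and in 2.07% of the 32851 windows of all genes. The CArG box was in 1 of 8, that of *Dusp5*, which held a pair side by side, and in 1.47% of all windows. The letters TGACG, the core shared with the longer cyclic AMP response element TGACGTCA, were in 2 of 8, *Spred2* and *Dusp5*, and in 17.8% of all. The letters CCGGAA, a strict form of the ETS site (12.03% of all windows), TGACGTCA (1.55%) and the AP-1 motif TGANTCA (6.75%) were in none of the 8. This says only that these letters are not in these windows. The shorter ETS core GGAA, which the windows printed above hold, was not searched. All motifs were searched on both strands. The 8 windows had 55.6% to 77.2% G and C, against a median of 52.4% over all windows.

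Sprouty transcripts changed in opposite directions. *Spry1*, *Spry2* and *Spry4* encode proteins with a shared cysteine-rich domain that are recruited to the membrane after growth factors act. *Spry1* (ENSMUSG00000037211, chromosome 3 of GRCm38 from 37639947 to 37644598, plus strand) fell, with 1262, 1704, 1830 and 793 normalized counts in mutant libraries 1 to 4. Wild-type libraries 1 to 4 had 2637, 2788, 2466 and 2299. All 4 mutant libraries were below all 4 wild-type libraries, and mutant 4 was the lowest. The group means were 1397 ± 471 and 2547 ± 212 (SD, n = 4), a log2 fold change of -0.87 (SE 0.21, adjusted p = 0.00745, edgeR). The antisense gene *Gm42922*, with a mean of 21.2 counts per library, shares 710 exonic bases with *Spry1*, 24.4% of its counted length. Whether the counting used strand is not given in the sources used here, so reads in that stretch cannot be told apart.

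*Spry2* (ENSMUSG00000022114, chromosome 14 from 105891949 to 105896819, minus strand) rose, from 1250, 1339, 1374 and 1116 normalized counts in wild-type libraries 1 to 4 to 2541, 2066, 2762 and 2214 in mutant libraries 1 to 4. The lowest mutant library, at 2066, was well above the highest wild-type library, at 1374. Its means were 2396 ± 315 in mutant and 1270 ± 115 in wild-type ECs (SD, n = 4), a log2 fold change of 0.92 (SE 0.10, adjusted p = 8.85e-05, edgeR). *Spry4* (ENSMUSG00000024427, chromosome 18 from 38586268 to 38601268, minus strand) also rose. It had 4354, 3411, 3521 and 3470 normalized counts in the mutant and 2188, 2693, 2094 and 1761 in the wild-type libraries. Mutants 2 to 4 lay close together and mutant 1 stood above them, and all were above the wild-type libraries. The log2 fold change of *Spry4* was 0.76 (SE 0.13, adjusted p = 8.94e-04, edgeR), from 2184 ± 386 to 3689 ± 446 normalized counts (SD, n = 4).

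Levels of different genes are compared only in TPM, a share of all transcripts that divides counts by the counted gene length. In wild-type ECs *Spry1* was the most abundant Sprouty transcript, at 111 ± 9.03 TPM, ahead of *Spry2* at 77.5 ± 8.88 and *Spry4* at 60.5 ± 10.5 (SD, n = 4). In mutant ECs it was the least abundant, at 58.5 ± 20.2 TPM, behind *Spry2* at 139.7 ± 18.5 and *Spry4* at 97.6 ± 9.60. *Spry1* made up 44.8% ± 1.47 of the summed Sprouty TPM in wild-type and 19.5% ± 5.66 in mutant libraries. *Spry2* took 31.1% ± 1.82 and 47.2% ± 3.44, and *Spry4* 24.1% ± 1.90 and 33.2% ± 3.91, of that sum. No share overlapped between the groups. The summed Sprouty TPM was 249 ± 26.3 in wild-type and 296 ± 33.8 in mutant libraries, and its ranges, 214 to 275 and 257 to 336, did overlap.

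**Figure D2:**
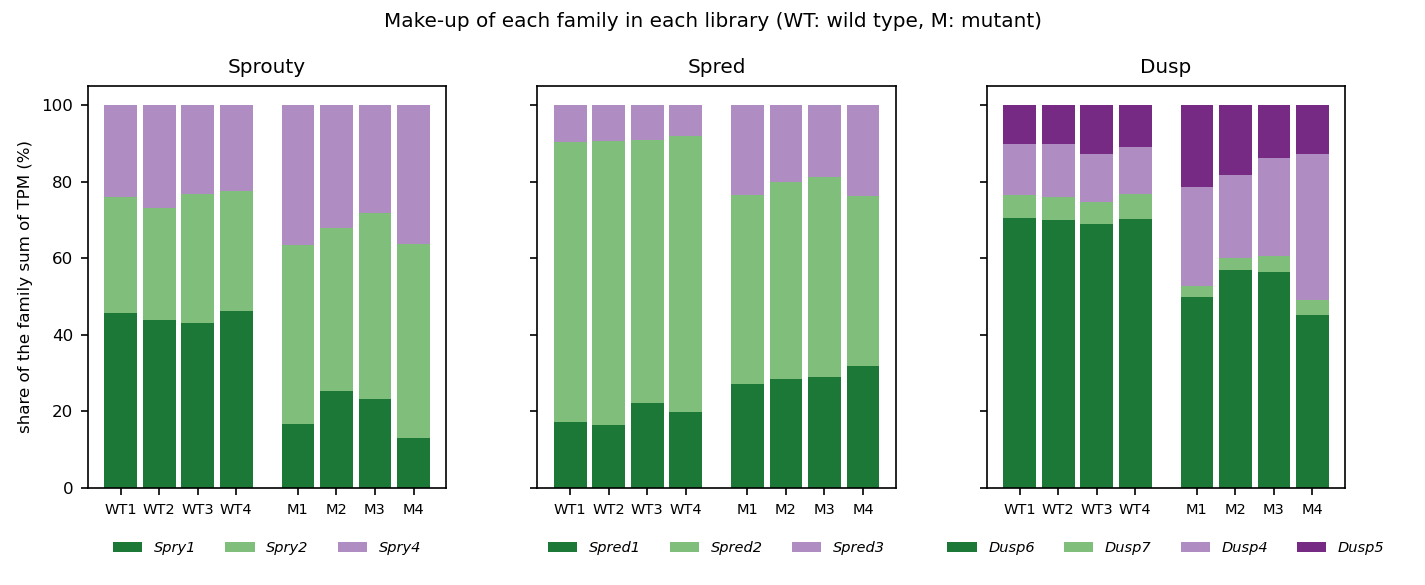
Share of each gene in the summed TPM of its family (percent, stacked bars from 0) in each wild-type (WT1 to WT4) and mutant (M1 to M4) library. *Spry1*, *Spred2* and *Dusp6*, which take the largest share of their families in every wild-type library, take a smaller share in every mutant library.

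Among the Spred genes, *Spred1* and *Spred3* rose and *Spred2* did not pass the test. Spred proteins share the cysteine-rich domain of Sprouty and carry a further domain that binds neurofibromin. *Spred3* (ENSMUSG00000037239, chromosome 7 from 29158829 to 29170411, minus strand) had 1876, 1431, 1299 and 1740 normalized counts in mutant libraries 1 to 4. Wild-type libraries 1 to 4 held 530, 549, 532 and 458. The lowest mutant library was far above the highest wild-type library, and the wild-type libraries were close together. Means were 1587 ± 268 and 517 ± 40.5 (SD, n = 4), a 3.07-fold rise (log2 fold change 1.62, SE 0.12, adjusted p = 8.19e-06, edgeR). The absolute log2 fold change of *Spred3* was larger than that of 94.0% of all genes tested, while those of the other 9 genes were larger than that of 28.3% to 87.2%. *Ggn*, on the opposite strand, shares 251 exonic bases with *Spred3*, 4.04% of its counted length, and had a mean of 237.5 counts per library. The *Spred3* promoter shown above, with its Capicua motif, precedes the RefSeq start, which lies inside the gene as counted here.

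*Spred1* (ENSMUSG00000027351, chromosome 2 from 117121374 to 117182279, plus strand), the Spred gene mutated in Legius syndrome, had 2382, 2208, 2181 and 2542 normalized counts in mutant and 1025, 1058, 1425 and 1227 in wild-type libraries. Mutant libraries were the more even, with a coefficient of variation of 7.21% against 15.5%. *Spred1* rose 1.97-fold (log2 fold change 0.98, SE 0.11, adjusted p = 7.54e-05, edgeR), from 1184 ± 183 to 2328 ± 168 (SD, n = 4). *Spred2* (ENSMUSG00000045671, chromosome 11 from 19924375 to 20024026, plus strand) had 2926, 2725, 2692 and 2412 normalized counts in mutant and 2955, 3283, 2997 and 3037 in wild-type libraries. The groups did not overlap, although mutant 1, at 2926, and wild type 1, at 2955, nearly met. The log2 fold change of *Spred2* was -0.19 (95% interval -0.35 to -0.03), with an unadjusted p of 0.0247 and an adjusted p of 0.0544 (edgeR), which missed the threshold. It passed under 5 of 17 alternatives, and over all 17 its adjusted p lay between 0.00905 and 0.174.

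By TPM, *Spred2* was the leading Spred transcript in both groups, at 84.4 ± 4.22 in wild-type and 70.7 ± 4.54 in mutant ECs (SD, n = 4). *Spred1* had 22.3 ± 4.15 and 41.7 ± 2.97 TPM, and *Spred3* 10.6 ± 0.972 and 31.0 ± 4.73. The share of *Spred2* in the Spred sum was 72.1% ± 2.43 in wild-type and 49.4% ± 3.58 in mutant libraries. *Spred3* went from 9.02% ± 0.695 to 21.5% ± 2.48 of that sum, and *Spred1* from 18.9% ± 2.67 to 29.1% ± 1.94. The summed Spred TPM was 109 to 126 in wild-type and 138 to 151 in mutant libraries, so these sums did not overlap.

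Among the Dusp genes, *Dusp4* and *Dusp5*, which encode nuclear phosphatases, rose and *Dusp6* and *Dusp7*, which encode cytoplasmic ones, fell. *Dusp4* (ENSMUSG00000031530, chromosome 8 from 34807297 to 34819894, plus strand), whose enzyme also acts on other MAP kinases, had 6530, 4676, 5869 and 7890 normalized counts in mutant and 3106, 3234, 2767 and 2553 in wild-type libraries. No mutant library was as low as any wild-type library, and mutant 4 was the highest. *Dusp4* rose 2.14-fold (log2 fold change 1.10, SE 0.15, adjusted p = 2.13e-04, edgeR), from 2915 ± 312 to 6241 ± 1341 (SD, n = 4). *Dusp5* (ENSMUSG00000034765, chromosome 19 from 53529109 to 53542431, plus strand), an ERK-specific enzyme that also holds ERK in the nucleus, had 4830, 3518, 2831 and 2389 normalized counts in mutant and 2155, 2118, 2512 and 2039 in wild-type libraries. Mutants 1 to 3 were above all wild-type libraries and mutant 4 was within their range. *Dusp5* rose 1.54-fold (log2 fold change 0.62, SE 0.18, adjusted p = 0.0196, edgeR), from 2206 ± 209 to 3392 ± 1065 (SD, n = 4). The *Dusp5* call was lost without wild type replicate 2 (0.60, adjusted p = 0.0502) and without wild type replicate 4 (0.58, adjusted p = 0.0509), and its adjusted p was 0.00303 to 0.0509 over all 17 alternatives.

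*Dusp6* (ENSMUSG00000019960, chromosome 10 from 99263231 to 99267488, plus strand) encodes an ERK-specific phosphatase whose transcript is widely read as a sign of ERK activity. ERK activity itself was not measured in these libraries, and the study describes increased phosphorylated ERK in earlier lesions of this mouse line. *Dusp6* had 12792, 12457, 13135 and 9543 normalized counts in mutant and 16934, 16684, 15441 and 14821 in wild-type libraries. All mutant libraries were below all wild-type libraries. The means, 11982 ± 1649 and 15970 ± 1006 (SD, n = 4), gave a log2 fold change of -0.41 (SE 0.10, adjusted p = 0.00886, edgeR), 1.33-fold lower in mutant ECs. *Dusp7* (ENSMUSG00000053716, chromosome 9 from 106368632 to 106375724, plus strand), its closest relative here, had 876, 818, 1190 and 1005 normalized counts in mutant and 1762, 1782, 1570 and 1649 in wild-type libraries. *Dusp7* fell further than *Dusp6* on the log2 scale, by 0.80 (SE 0.11, adjusted p = 3.03e-04, edgeR), from 1691 ± 99.5 to 972 ± 165 (SD, n = 4). This difference between *Dusp6* and *Dusp7* was not tested.

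*Dusp6* was the most abundant of the 10 transcripts in both groups, at 726 ± 43.0 TPM in wild-type and 521 ± 70.1 TPM in mutant ECs (SD, n = 4). *Dusp4* followed with 135 ± 13.7 and 277 ± 59.9 TPM, then *Dusp5* with 114 ± 14.7 and 166 ± 48.3, and *Dusp7* had 64.0 ± 2.5 and 35.3 ± 6.49. *Dusp6* held 69.9% ± 0.710 of the summed TPM of the 4 Dusp genes in wild-type and 52.1% ± 5.61 in mutant libraries. *Dusp4* went from 13.0% ± 0.664 to 27.9% ± 7.07 of that sum. The nuclear pair together amounted to 31.5% ± 1.61 of the cytoplasmic pair in wild-type libraries and to 81.2% ± 18.7 in mutant libraries, where the ratio was 65.1% to 104%. This ratio covers only these 4 genes and not all nuclear and cytoplasmic MAP kinase phosphatases. Of the further ones given below, the cytoplasmic *Dusp9* rose. The abundant *Dusp1* and *Dusp2* did not pass, with log2 fold changes of -0.45 and 0.29. None of these was added to the ratio. The Dusp sum itself overlapped between the groups, at 1038 ± 63.6 TPM in wild-type and 999 ± 69.2 TPM in mutant libraries.

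Over all 10 genes the summed level was nearly the same in both groups, at 1405 ± 91.0 TPM (range 1271 to 1465) in wild-type and 1438 ± 99.2 TPM (1330 to 1538) in mutant libraries (SD, n = 4). *Dusp6* alone made up 51.7% ± 1.05 of this sum in wild-type and 36.1% ± 3.63 in mutant libraries. The order of the 10 levels also differed. In wild-type ECs *Dusp6* was followed by *Dusp4*, *Dusp5*, *Spry1*, *Spred2*, *Spry2*, *Dusp7*, *Spry4*, *Spred1* and *Spred3*. In mutant ECs the order was *Dusp6*, *Dusp4*, *Dusp5*, *Spry2*, *Spry4*, *Spred2*, *Spry1*, *Spred1*, *Dusp7* and *Spred3*. Not every step in these orders exceeds the spread. In wild-type libraries the ranges of *Dusp4* and *Dusp5*, *Dusp5* and *Spry1*, *Spred2* and *Spry2*, and *Dusp7* and *Spry4* overlapped. In mutant libraries those of *Dusp4* and *Dusp5*, *Dusp5* and *Spry2*, *Spred2* and *Spry1*, *Spry1* and *Spred1*, *Spred1* and *Dusp7*, and *Dusp7* and *Spred3* did.

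**Figure D3:**
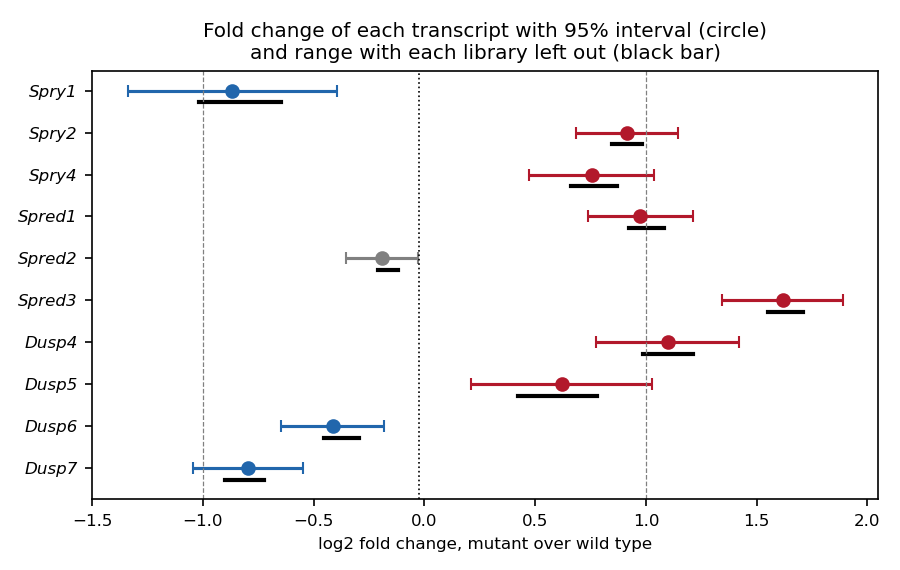
Log2 fold change of each gene, mutant over wild type, with its 95% interval (circle and whiskers: red higher, blue lower, grey not past an adjusted p of 0.05), and the range with each library left out in turn (black bar). Dashed lines mark the limits of -1 and 1 and the dotted line the median of all genes tested, -0.02, and no black bar crosses 0.

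The mutant libraries did not share 1 order. *Map2k1* was highest in mutant 1, at 1.48 times its lowest mutant library, mutant 2. Mutant 1 was also the highest for *Spry4*, *Spred3*, *Dusp5* and *Spred2*, and mutant 2 the lowest for *Spry2*, *Spry4*, *Dusp4* and *Dusp7*. Mutant 4 was the lowest for *Spry1*, *Dusp6*, *Dusp5* and *Spred2* and the highest for *Dusp4* and *Spred1*. The spread between mutant libraries was widest for *Spry1*, where the highest was 2.31 times the lowest, and *Dusp5*, at 2.02 times, and narrowest for *Spred1*, at 1.17 times. With 4 mutant libraries no relation with the *Map2k1* level was tested. For 8 of the 10 genes, all but *Spry4* and *Spred1*, the coefficient of variation was larger in mutant than in wild-type libraries.

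**Figure D4:**
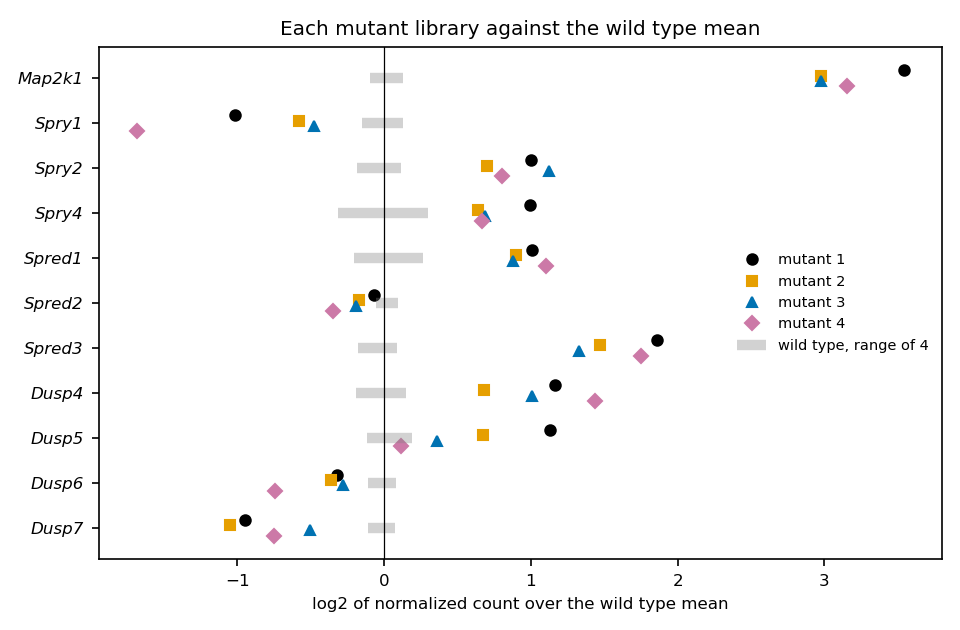
Log2 of the normalized count over the wild-type mean for *Map2k1* and the 10 genes, with each mutant library as a marker and the range of the 4 wild-type libraries as a grey bar. For *Spry1* and *Dusp6* mutant 4 lies farthest below 0, at -1.68 and -0.74, and for *Dusp5* it lies inside the grey bar.

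The sample labels carry 3 prefixes, each with equal numbers of libraries from both groups. Control pups were picked at random from the litters of the mutants, in matching numbers, and cells of all pups are described as having been processed together. The sources used here do not say that a prefix is a litter. With the prefix as a block in the fit, *Spred2* passed as lower (log2 fold change -0.19, adjusted p = 0.0318, edgeR), so that 6 of the 10 genes were higher and 4 lower, and no other call of the 10 changed. Calls rose over all 16887 genes tested as well, to 4182 higher and 4428 lower from 3631 and 3873 without the block. Replicates 1 and 2 share a prefix, replicate 3 has another and replicate 4 the last. Within every prefix each of the 10 genes had the sign of its overall fold change. The log2 ratio of the group means was 1.62, 1.29 and 1.93 for *Spred3* in these prefixes, and 0.82, 1.08 and 1.63 for *Dusp4*. It was -0.41, -0.23 and -0.64 for *Dusp6*, and -0.87, -0.43 and -1.54 for *Spry1*. For *Dusp5* it was 0.97 for replicates 1 and 2, 0.17 for replicate 3 and 0.23 for replicate 4. A prefix with 1 library a group gives no test of its own.

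Other genes of the pathway were described by lists. The counts of each list are to be read beside the 21.5% higher and 22.9% lower over all genes tested. Of 6 further MAP kinase phosphatase genes, 2 were higher and 2 lower in mutant ECs, beside 44.4% of all genes tested that differed. *Dusp9*, a cytoplasmic ERK phosphatase, rose from 20.5 ± 6.54 to 58.8 ± 9.29 normalized counts (SD, n = 4; log2 fold change 1.51, adjusted p = 0.00115, edgeR). *Dusp16*, which acts on JNK and p38, rose by 0.20 on the log2 scale (adjusted p = 0.0317), while *Dusp10* and *Dusp8*, of the same preference, fell by 0.78 and 0.43 (adjusted p = 0.00251 and 0.0199, edgeR). *Dusp1* and *Dusp2* did not pass, with log2 fold changes of -0.45 and 0.29. The abundant *Dusp1* had 38788 ± 5584 normalized counts in wild-type and 28386 ± 7234 in mutant libraries (SD, n = 4). Over the 17 alternatives 1 to 3 genes of these 6 were higher and 1 to 3 lower, with 1 higher without any one of mutant replicates 2 and 3 and wild type replicates 1, 2 and 3, and 1 lower without wild type replicate 1 or 2.

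Upstream, 7 of 24 receptor, adaptor and RAS genes were higher and 9 lower. *Fgfr1*, a receptor for fibroblast growth factors, rose from 2488 ± 286 to 5619 ± 1246 normalized counts (SD, n = 4; log2 fold change 1.18, adjusted p = 1.77e-04, edgeR). *Rasa2*, a GTPase activator that switches RAS off, rose by 0.88 on the log2 scale (adjusted p = 0.00227). The adaptor genes *Frs3* and *Gab1* fell by 0.85 and 0.82 on that scale (adjusted p = 0.00492 and 1.22e-04, edgeR). In the RAF, MEK and ERK cascade 3 of 13 genes were higher and 3 lower, near the 21.5% and 22.9% over all genes tested. Besides *Map2k1*, *Shoc2*, a scaffold of a phosphatase that activates RAF, had a log2 fold change of 0.63 (adjusted p = 3.66e-04, edgeR), and *Mras*, its RAS partner, one of -0.85 (adjusted p = 0.00149). *Pebp1*, which encodes a phosphatidylethanolamine-binding protein that dampens the cascade, rose by 0.40 (adjusted p = 0.00154), and *Ksr1*, a scaffold of the cascade, fell by 0.46 on the log2 scale (adjusted p = 0.00406, edgeR).

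Proteins that Sprouty and Spred bind gave 3 higher and 4 lower genes of 14, and 5 higher with DESeq2 or without wild type replicate 4. *Cblb*, a ubiquitin ligase of the family that binds Sprouty, had 766 ± 56.4 normalized counts in wild-type and 2504 ± 556 in mutant libraries (SD, n = 4; log2 fold change 1.71, adjusted p = 1.58e-05, edgeR). *Nf1*, which encodes neurofibromin, the partner of the Spred proteins, rose 1.52-fold (log2 fold change 0.60, adjusted p = 0.00113). *Mknk1* and *Tesk1*, kinase genes, fell by 0.46 and 0.41 on the log2 scale (adjusted p = 0.00275 and 0.0166, edgeR). *Cbl*, higher, and the ubiquitin ligase gene *Siah2*, lower, also passed. Of 13 other genes tested that encode feedback regulators or related signal modifiers, 5 were higher and 2 lower. The count of lower genes was 4 with upper quartile scaling, total counts alone or the label prefix block, and 1 without any one of mutant replicates 2 and 4 and wild type replicates 2 and 3. *Peak1*, a scaffold pseudokinase, rose 3.40-fold and *Trib3*, a stress-induced pseudokinase, 2.19-fold (log2 fold changes 1.77 and 1.13, adjusted p = 7.47e-06 and 0.00375, edgeR). *Rgs16* and *Socs3*, which dampen G protein and cytokine signals, had log2 fold changes of -0.81 and -0.40 (adjusted p = 0.00351 and 0.0245). *Errfi1*, an inhibitor of the EGF receptor, *Rasa3*, a GTPase activator, and *Trib1*, a pseudokinase, also rose, by 1.07, 0.73 and 0.48.

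Transcripts known to be induced by ERK also went both ways, with 9 of 23 higher and 7 lower, and a median log2 fold change of 0.11 against -0.02 over all genes tested. The count of lower transcripts was 4 without mutant replicate 4 or without wild type replicate 3. *Etv4*, an ETS transcription factor gene, rose from 74.8 ± 10.4 to 1454 ± 229 normalized counts (SD, n = 4; log2 fold change 4.28, adjusted p = 1.27e-07, edgeR). This 19.4-fold rise exceeded the 3.07-fold rise of *Spred3*, the largest among the 10 feedback genes. *Emp1*, a membrane protein gene, rose by 1.34 on the log2 scale (adjusted p = 4.17e-04), and *Plk3* and *Epha4*, a kinase and an ephrin receptor, fell by 1.06 and 0.92 (adjusted p = 2.81e-04 and 7.54e-05, edgeR). Of the dissociation-induced transcripts, the heat shock genes *Hspa1b* and *Hspa1a* had log2 fold changes of -2.58 and -2.51 (adjusted p = 3.62e-05 and 3.64e-05, edgeR), and *Egr1* and *Dusp1* did not pass.

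**Figure D5:**
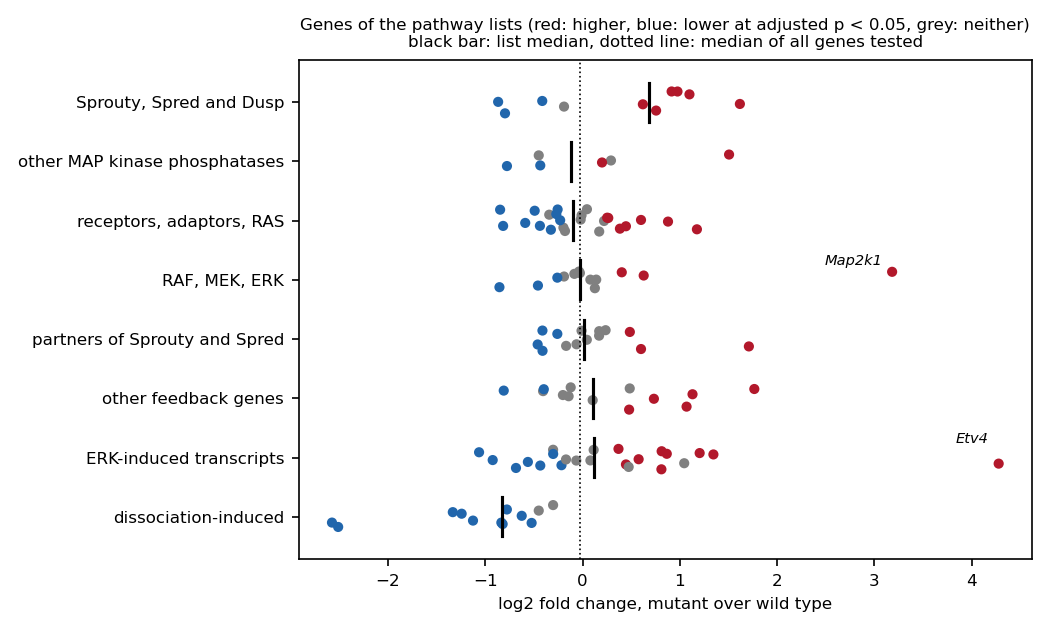
Log2 fold change, mutant over wild type, of each gene tested in 8 lists (red higher and blue lower at an adjusted p under 0.05, grey neither), with the list median (black bar) and the median of all genes tested (dotted line). The Sprouty, Spred and Dusp list has its median at 0.69, and the dissociation-induced list at -0.83.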

How the data were processed

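Brain ECs of 4 mutant and 4 wild-type pups were measured by poly(A) RNA sequencing. The authors used Trimmomatic for trimming and STAR for mapping to GRCm38, and deposited whole-number counts for 49315 genes per library. The counting program, annotation release and use of strand are not given in the sources used here. The authors also deposited a normalized signal for 16889 genes, the counts divided by 1 DESeq2 size factor per library, from which 100% of values came back as whole reads within 0.01 read. It holds the same counts and was not tested separately. Symbols were matched for 48970 identifiers from GENCODE vM21.

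The analysis used edgeR 4.0.16 under R 4.3.3. Library sizes were scaled by TMM, genes filtered with filterByExpr (minimum count 10), and groups compared with glmQLFit and glmQLFTest without covariates, with Benjamini-Hochberg adjustment over all 16887 genes tested. Standard errors are the log2 fold change divided by the root of the F statistic. Fold changes quoted as such are ratios of mean normalized counts. Alternatives used DESeq2 1.42.0, limma 3.58.1, other normalizations and filters, blocks, and each library left out. In a test on simulated data of 16674 genes, 200 of 200 changed genes and 11 unchanged genes were called. The simulated log2 changes were at least 1 in size, in genes of higher counts, with the same dispersion for every gene. Smaller changes, such as those of most of the 10 genes, were not simulated. Libraries of a group differed by more than sampling noise (chi-square per degree of freedom 7.30 to 41.9 over 12 pairs), so each is 1 replicate.

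The 10 genes and the lists were chosen with earlier results of these data known. The lists cover other MAP kinase and atypical dual-specificity phosphatases, receptors and RAS, the RAF, MEK and ERK cascade, Sprouty and Spred partners, other feedback genes, ERK-induced and dissociation-induced transcripts, and markers of 9 cell types. From each pathway list the text names the 2 genes of largest rise and of largest fall past an adjusted p of 0.05 and a higher group averaging 50 normalized counts or more, and all genes of a count of 5 or fewer, except 1 gene that is not reported here. Other genes were chosen after their values were seen. *Spry3* was not analysed here.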

Additional observations from a re-analysis of the deposited data

Results flagged for a closer look

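In 1 of 22 groups of 4 libraries examined, a single library stood apart from the others by more than Dixon's 95% critical value. This was *Spry4* in mutant 1, with 4354 normalized counts where the other mutant libraries had 3411, 3521 and 3470, a gap of 0.884 of the group's range. Chance alone would mark about 5% of such groups. Without mutant replicate 1 the log2 fold change of *Spry4* was 0.69.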

How the results depend on the processing

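Every member's log2 fold change kept its sign under all 17 alternatives, and 163 of 170 such values kept their side of the threshold. The exceptions were *Spred2*, which passed with upper quartile scaling (-0.25), total counts (-0.25), a minimum count of 50 (-0.19), the label prefix block (-0.19) and without mutant replicate 1 (-0.21), and *Dusp5*, which missed it without wild type replicate 2 (0.60) or replicate 4 (0.58). Upper quartile scaling and total counts also moved the median log2 fold change of all genes tested, to -0.09 and -0.08 from -0.02. Members higher numbered 5 to 6 and lower 3 to 4 with each library left out. The count past both limits was 2 and ranged from 1 without mutant replicate 4, where *Dusp4* had a log2 fold change of 0.99, to 4 without mutant replicate 3, where *Spry1* (-1.02) and *Spred1* (1.01) were added. All genes called numbered 3631 higher and 3873 lower, and 3133 to 3596 higher and 3006 to 3723 lower with each library left out. With the replicate number as a replicate block, 3973 genes were higher and 4189 lower, and 6 members higher and 3 lower. Same-numbered libraries deviated together with correlations of 0.0241 to 0.290, and those of replicates 2 and 4 matched another number better, so the numbers were not taken to pair pups. Of 272 counts in pathway lists 34 moved by over 1.5 times, the causes of which were not tested. All 100 alternative levels per length stayed within 1 SD. The 10 genes had 434 or more counts per library, and each pup gave 1 library, so spread between pups and between library preparations cannot be told apart.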

Other observations

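The atypical dual-specificity phosphatases, relatives of the Dusp genes above that mostly lack their MAP kinase docking domain, gave 7 lower and 1 higher of 12 tested, beside 22.9% lower and 21.5% higher over all genes tested. The number lower was 4 without mutant replicate 4, wild type replicate 1 or wild type replicate 2. *Dusp27* had 223 ± 13.1 normalized counts in wild-type and 47.7 ± 18.3 in mutant libraries (SD, n = 4; log2 fold change -2.22, adjusted p = 7.14e-05, edgeR). *Dusp26*, a phosphatase of neural tissue, fell from 56.1 ± 8.82 to 17.3 ± 8.79 (log2 fold change -1.67, adjusted p = 0.00249), beside the lower neuronal markers, whose part was not tested. *Dusp12* was the gene that rose, by 0.52 on the log2 scale (adjusted p = 0.0481, edgeR), and over the 17 alternatives 0 to 1 of these genes were higher and 4 to 7 lower. No gene of the list was higher without any one of mutant replicates 1, 3 and 4 and wild type replicates 1, 2 and 3. The abundant members *Dusp11* and *Dusp3*, named after their values were seen, fell by 0.18 and 0.37 on the log2 scale (adjusted p = 0.0473 and 0.00224, edgeR).

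In each of the 3 families the transcript with the highest wild-type TPM, *Spry1*, *Spred2* and *Dusp6*, had a lower mean in mutant ECs, although *Spred2* missed the threshold. This was noticed in the data and is a description of 3 families.

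The genes whose level followed the mean standardised log2 CPM of the 10 genes most closely over the 8 libraries were *Ctdnep1* (Pearson r 0.976), *Farp1* (0.964), *Rcsd1* (0.961), *Tlr12* (0.960) and *Ccdc97* (0.951), out of 11390 candidates. These values are a description of 8 libraries in 2 groups. The mean profile did not separate the groups, with mutant 4 at -0.18 and wild type 2 at 0.02. Between the groups *Farp1* and *Tlr12* passed (adjusted p = 0.0321 and 0.00910, edgeR). *Ctdnep1*, *Rcsd1* and *Ccdc97* did not (adjusted p = 0.163, 0.0873 and 0.0846, edgeR). The mean profile follows *Spry4* (r 0.853) and *Dusp5* (0.848) most and runs against *Dusp7* (-0.615), since the 10 genes do not move together.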
